A study of Rattus norvegicus with 2 samples.

Results

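The genes described here encode the intermediate filament proteins of neural cells and of the nuclear lamina. There are 10 of them among the 18049 genes of the deposited table, chosen by gene symbol: 7 cytoplasmic genes (Vim, Nes, Gfap, Nefl, Nefm, Nefh and Ina) and 3 lamin genes (Lmna, Lmnb1 and Lmnb2). All 10 were found in the table and had a mean level above the minimum used here for calling a gene measured. RNA was sequenced from wild-type rat oligodendrocyte precursor cells (OPCs), dividing glial cells from which the myelinating oligodendrocytes arise. One culture was electroporated with siHsc70, a small interfering RNA against the chaperone HSC70, which is encoded by Hspa8, and the other with a scrambled one (siSCR). Both came from the cortex of pups aged postnatal day 2 to 4 by immunopanning against GalC and A2B5. Differentiation was started with T3 (a thyroid hormone, at 60 nM) in a medium that also held CNTF and forskolin, and the series places them at day 2 of T3 as immature oligodendrocytes. The study is concerned with HSP70 chaperones and myelin formation, and the comparison asks which transcripts differ once HSC70 is depleted.

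Intermediate filaments are rope-like polymers of coiled-coil proteins. The cytoplasmic ones give cells resistance to strain and change as a neural cell matures. Vimentin and nestin are typical of neural progenitors and immature glia, GFAP is the filament of astrocytes, and the neurofilament proteins and alpha-internexin fill axons. Lamins form the meshwork under the inner nuclear membrane, with A-type lamins from Lmna and B-type lamins from Lmnb1 and Lmnb2. Small heat shock proteins and HSP70 chaperones are known to bind intermediate filament proteins and to limit their aggregation.

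Each condition is represented by 1 library, with 18130817 estimated counts for siHsc70 and 19085626 for siSCR. No test between the conditions was possible, and whether a difference exceeds the spread between cultures is not known. Levels of different genes are compared below in TPM (transcript abundance scaled for transcript length, to the same total in each library). Differences between the libraries are based on CPM (counts after scaling each library to a common size) and are given as a ratio with a 95% exact (Clopper-Pearson) interval, which covers counting error only. A gene was called at least 2-fold different when its log2(CPM + 1) differed by at least 1, and 13518 genes averaging 1 CPM or more were called measured. Of these, 2.29% were at least 2-fold higher in siHsc70 and 5.14% at least 2-fold lower. Counts for every gene list below are to be read beside these shares. The targeted gene, Hspa8, was at 507 CPM in siHsc70 and 1399 CPM in siSCR. Markers of oligodendrocytes and of astrocytes were both present. The 12 oligodendrocyte markers summed to 963 TPM in siHsc70 and 5361 TPM in siSCR, and the 9 of them that were measured were all at least 2-fold lower in siHsc70. The late markers Mal, Opalin and Ermn were below the minimum, at 1 to 5 counts in siHsc70 and 9 to 19 in siSCR. The 15 astrocyte markers other than Gfap and Vim, of which 12 were measured, summed over all 15 to 2700 TPM in siHsc70 and 2720 TPM in siSCR. In bulk RNA, fewer cells of a type and less RNA per cell cannot be told apart.

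The windows before the transcription start are shown for the most abundant member, Vim, and for the 3 well-covered members that were at least 2-fold different, Nes, Gfap and Ina. They are the 250 bases before the start in RefSeq's promoter table for the rat assembly GRCr8, printed 5′ to 3′ on the gene's own strand. Capitals mark matches, on either strand, to any of 7 motifs: the TATA box TATAAA, the CCAAT box CCAAT, the GC box GGGCGG, the AP-1 motif TGANTCA, the STAT motif TTCNNNGAA, the heat shock element pair GAANNTTC and the SOX motif ACAAAG.
Vim, chr17:81577011-81577260, plus strand: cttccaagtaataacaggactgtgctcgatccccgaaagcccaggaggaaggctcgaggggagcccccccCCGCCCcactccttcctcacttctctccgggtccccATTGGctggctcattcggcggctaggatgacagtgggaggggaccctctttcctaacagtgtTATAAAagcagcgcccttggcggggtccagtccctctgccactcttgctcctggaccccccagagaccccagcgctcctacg
Nes, chr2:175736338-175736587, plus strand: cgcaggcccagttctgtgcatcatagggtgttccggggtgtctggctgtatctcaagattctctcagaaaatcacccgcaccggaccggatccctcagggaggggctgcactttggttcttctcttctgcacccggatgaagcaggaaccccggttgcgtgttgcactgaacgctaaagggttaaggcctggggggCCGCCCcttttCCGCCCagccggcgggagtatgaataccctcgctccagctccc
Gfap, chr10:88361662-88361911, minus strand: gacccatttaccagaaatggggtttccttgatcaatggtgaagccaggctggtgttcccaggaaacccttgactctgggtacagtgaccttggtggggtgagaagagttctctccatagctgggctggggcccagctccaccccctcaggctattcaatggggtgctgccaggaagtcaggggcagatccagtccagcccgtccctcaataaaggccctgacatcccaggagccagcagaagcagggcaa
Ina, chr1:255837879-255838128, plus strand: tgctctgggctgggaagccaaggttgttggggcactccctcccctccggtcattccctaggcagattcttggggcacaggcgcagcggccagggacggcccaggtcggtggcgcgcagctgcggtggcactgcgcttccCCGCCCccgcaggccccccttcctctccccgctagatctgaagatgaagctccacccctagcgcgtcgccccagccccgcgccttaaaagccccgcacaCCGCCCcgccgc
The Vim window holds a TATA box at -82 to -77 from the start, a CCAAT box at -144 to -140 and a GC box at -180 to -175. The Nes and Ina windows each hold 2 GC boxes, and the Gfap window holds no match to the 7 motifs. The Nes window lies inside the span that RefSeq gives to the gene, which begins further upstream. Of all 33469 promoters in the table, windows of the same length hold TATAAA in 12.9%, CCAAT in 34.0% and GGGCGG in 30.5%. TGANTCA stands in 6.34% of them, TTCNNNGAA in 7.67%, GAANNTTC in 7.23% and ACAAAG in 16.3%, and none of these 4 has a match in the 7 member windows found. Those are the 4 above, Lmna with a GC box, Lmnb1 with a CCAAT box and Lmnb2 with no match. The members without an entry are Nefl, Nefm and Nefh. GC content was 62.4% in the Vim window, 60.4% in Nes, 57.6% in Gfap and 70.8% in Ina, beside a median of 51.2% over all promoters. A match is a string of letters and not a shown binding site.

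Members differed in both directions. Of the 10 genes, 2 were at least 2-fold higher in siHsc70 (Nes and Nefh), where 2.29% of all measured genes were, and 2 were at least 2-fold lower (Gfap and Ina), where 5.14% of all measured genes were. By a 1.5-fold rule 6 of the 10 differed in either direction, with Vim and Lmnb1 added, where 21.7% of all measured genes did. Under the 2-fold rule the other 6 were within it. The counting interval of every member's ratio left out 1, but the share of all measured genes for which this holds was not computed. At this depth such intervals are narrow. Slc1a3, an astrocyte marker picked after its values were seen, had a ratio of 1.07 (1.05 to 1.09), which leaves out 1 as well. The median difference of the 10 was 0.30 on the log2(CPM + 1) scale, beside -0.0034 over all measured genes. With 10 genes and 1 library per condition these shares describe the members and are not a test of the family.

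**Figure D1:**
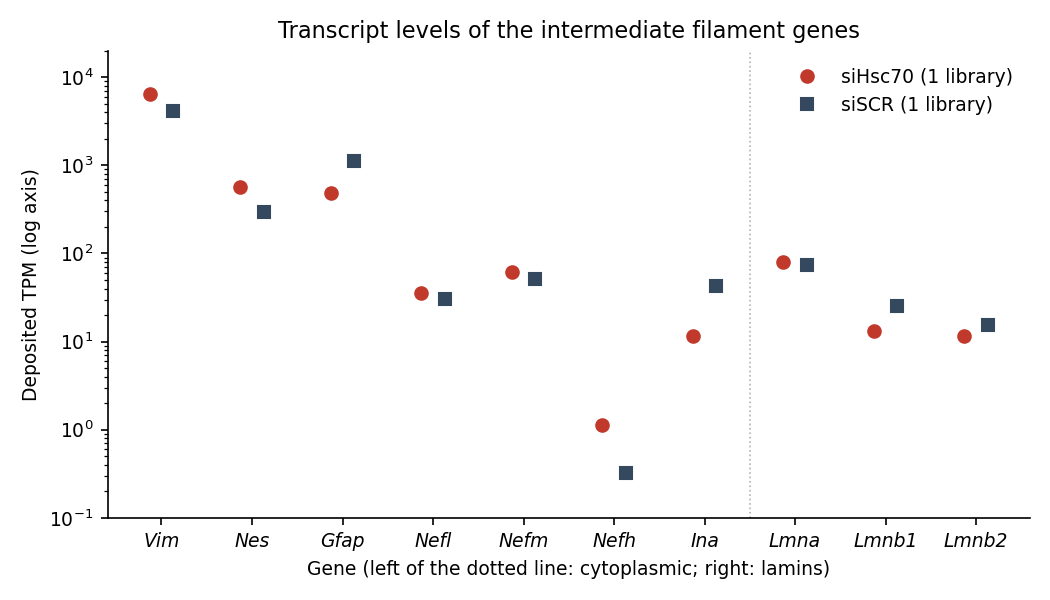
Deposited TPM of the 10 genes on a log axis, siHsc70 as circles left of siSCR as squares, 1 library each with no error bar. Vim was the most abundant in both, at 6503 TPM in siHsc70 and 4167 TPM in siSCR, and Nefh the least, at 1.12 and 0.32 TPM.

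Vim, the filament gene of immature glia and mesenchymal cells, was among the most abundant transcripts of both libraries. It was at 6503 TPM in siHsc70, the 5th highest gene of the table, and at 4167 TPM in siSCR, the 9th highest. Its count was 107315 in siHsc70 and 66729 in siSCR, a ratio of 1.72 (1.70 to 1.74), and its difference of 0.78 on the log2(CPM + 1) scale was greater than that of 94.8% of measured genes without reaching 2-fold. Vim alone took 84.8% of the summed cytoplasmic TPM in siHsc70 and 72.9% in siSCR.

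Nes encodes nestin, a large filament protein of neural stem and progenitor cells that polymerises together with vimentin. It was at 574 TPM in siHsc70 (230th highest gene) and 299 TPM in siSCR (522nd). The ratio was 2.11 (2.07 to 2.15), from 33003 counts in siHsc70 and 16754 in siSCR, and the difference of 1.07 was greater than that of 98.3% of measured genes. With the deposited TPM in place of CPM the difference was 0.94, which ends the 2-fold call; on that scale the median of all measured genes was itself -0.13. Nes and Vim were both higher in siHsc70, but not in proportion: there were 0.0882 Nes transcripts per Vim transcript in siHsc70 and 0.0718 in siSCR, on the TPM scale.

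Gfap, the filament gene of astrocytes, was lower instead. It was at 481 TPM in siHsc70 and 1126 TPM in siSCR, which put it below Nes in siHsc70 and above Nes in siSCR. Counts were 12001 in siHsc70 and 27246 in siSCR, 2.12-fold lower (2.08 to 2.17). Its share of the summed cytoplasmic TPM was 6.28% in siHsc70 and 19.7% in siSCR. For each Gfap transcript there were 13.5 Vim transcripts in siHsc70 and 3.70 in siSCR, on the TPM scale.

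The other astrocyte markers differed in both directions. Of the 12 measured, 1 was lower by at least 2-fold (Aqp4) and 0 were higher by as much; 8 were higher in siHsc70 by any amount and 4 lower, with a median difference of 0.19, or -0.0084 with the deposited TPM and 0.017 with no minimum level. Aqp4, the water channel of astrocyte end-feet, was at 8.10 TPM in siHsc70 and 36.4 TPM in siSCR. Aldh1l1, a folate enzyme used as a pan-astrocyte marker, was at 22.6 TPM in siHsc70 and 15.5 TPM in siSCR, and Sox9, a gliogenic transcription factor, at 74.0 and 53.0 TPM in the same order. S100b, a calcium-binding protein of astrocytes and oligodendroglia, was at 481 TPM in siHsc70 and 349 TPM in siSCR. Aldoc, a glycolytic enzyme of astrocytes, was at 170 TPM in siHsc70 and 282 TPM in siSCR, Slc4a4, a bicarbonate transporter, at 39.5 and 52.2 TPM, and Atp1b2, a sodium pump subunit, at 490 and 570 TPM in the same order. These 6 were picked after their values were seen. The markers Gjb6, Agt and Ntsr2 were near 0, at 2 to 14 counts in siHsc70 and 4 to 17 in siSCR. Ratios of the 12 ranged from 0.242 (Aqp4) to 1.61 (Aldh1l1), and Slc1a3, Atp1b2 and S100b, the 3 with the highest TPM in siHsc70, make up most of the summed level given above. The part of astrocytes in the Gfap value was not tested.

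**Figure D2:**
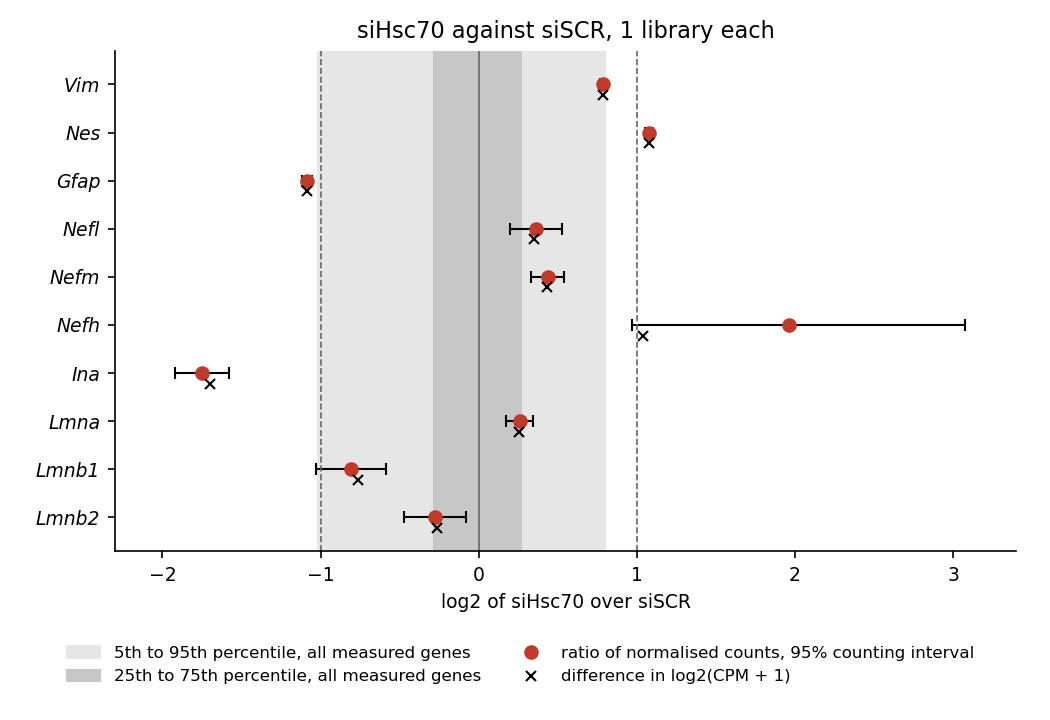
Ratio of siHsc70 to siSCR for each gene on a log2 axis, as circles with 95% counting intervals, and the difference in log2(CPM + 1) as crosses; shading gives the 5th to 95th and 25th to 75th percentiles of all measured genes and dashed lines the 2-fold rule. Ina and Gfap lie left of the lower dashed line, Nes and Nefh lie right of the upper one, and Nefh has the widest interval (1.96 to 8.41 as a ratio).

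The neuronal filament genes were low, and they split. Nefl and Nefm encode the light and medium neurofilament subunits, of which the light one is the core of the polymer. Nefl was at 35.4 TPM in siHsc70 and 30.4 TPM in siSCR, a ratio of 1.29 (1.15 to 1.44). Nefm was at 62.4 TPM in siHsc70 and 50.9 TPM in siSCR, a ratio of 1.35 (1.26 to 1.45). Both were thus modestly higher, and their proportion was close, with 1.76 Nefm transcripts per Nefl transcript in siHsc70 and 1.68 in siSCR.

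Nefh encodes the heavy subunit, whose long tail carries many phosphorylation sites and which appears late in neuronal maturation. It was close to the limit of detection, with 40 counts in siHsc70 and 11 in siSCR, or 1.12 TPM and 0.32 TPM. Its ratio of 3.89 had an interval from 1.96 to 8.41. The difference of 1.04 on the log2(CPM + 1) scale was just past the 2-fold rule; it was 1.79 with a pseudocount of 0.1, 0.68 with the deposited TPM and 0.46 with the deposited FPKM.

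Ina, which encodes alpha-internexin, a filament protein of early axons, had the largest difference of the 10 on the log2(CPM + 1) scale. It was at 11.5 TPM in siHsc70 and 42.6 TPM in siSCR, and at 19.8 and 66.5 CPM, 3.36-fold lower (2.98 to 3.79). Its difference of -1.70 was larger in size than that of 98.2% of measured genes. Ina stood between Nefl and Nefm in siSCR and below both in siHsc70: there were 0.326 Ina transcripts per Nefl transcript in siHsc70 and 1.40 in siSCR. In RefSeq's GRCr8 annotation Ina overlaps Nt5c2, a nucleotidase gene, and the estimated counts of Ina are not whole, so that reads may have been divided between rows. Counts that are not whole do not by themselves point to an overlap, since those of Nes, which overlaps 0 genes there, are not whole either. Nt5c2 was at 67.4 CPM in siHsc70 and 74.7 CPM in siSCR, a ratio of 0.902. The Ina and Nt5c2 rows added together, of which Nt5c2 is the larger in both libraries, had a ratio of 0.618 (0.580 to 0.658).

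Neuronal markers outside the filament genes were also split. Of 14 measured, 4 were lower by at least 2-fold and 0 higher, 5 were higher by any amount, and the median difference was -0.37. The 3 with the largest difference were Dcx, a microtubule protein of migrating neuroblasts (1.35 TPM in siHsc70, 7.89 TPM in siSCR), Elavl3, a neuronal RNA-binding protein (21.6 and 65.1 TPM in the same order), and Syp, a synaptic vesicle protein (4.82 and 14.1 TPM). Of the higher ones, 3 were picked after their values were seen. Gad2 had a ratio of 2.17 (1.69 to 2.81) and Snap25 of 2.00 (1.68 to 2.40). Their differences of 0.98 and 0.93 on the log2(CPM + 1) scale fell just short of the rule, since the pseudocount shrinks them. Stmn2, a growth cone protein, was at 17.2 TPM in siHsc70 and 11.1 TPM in siSCR. The list summed to 468 TPM in siHsc70 and 695 TPM in siSCR, and Slc17a6 and Slc17a7, the vesicular transporters of glutamatergic neurons, had 0 to 1 counts in siHsc70 and 1 to 3 in siSCR. The part of neuronal cells in the values of Ina and the neurofilament genes was not tested.

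**Figure D3:**
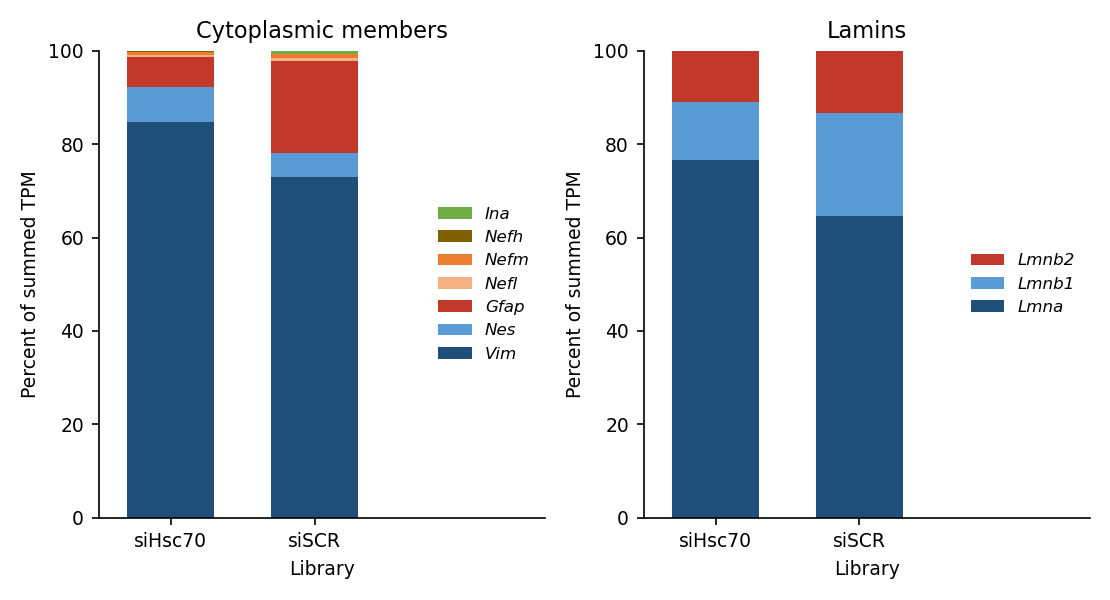
Share of each gene in the summed TPM of the 7 cytoplasmic members and of the 3 lamins, siHsc70 left of siSCR, 1 library each. The Gfap share was 6.28% in siHsc70 and 19.7% in siSCR, and the Lmna share 76.6% and 64.5%.

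Added up, the 7 cytoplasmic genes held 7668 TPM in siHsc70 and 5717 TPM in siSCR, a ratio of 1.34 on the TPM scale. Of all estimated counts they took 0.856% in siHsc70 and 0.597% in siSCR. Of this sum Nes took 7.48% in siHsc70 and 5.24% in siSCR, Nefl 0.462% and 0.531%, Nefm 0.814% and 0.890%, and Ina 0.150% and 0.746%. The shares of Vim and Nes were higher in siHsc70, and those of Gfap, Ina, Nefl and Nefm were lower.

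The lamins were far less abundant than Vim, Nes and Gfap, though Lmna was above the neuronal filament genes, and none was 2-fold different. Lmna, whose transcripts give lamins A and C, was at 80.6 TPM in siHsc70 and 74.3 TPM in siSCR, a ratio of 1.20 (1.13 to 1.27). Lmnb1, a B-type lamin gene, was at 13.2 TPM in siHsc70 and 25.5 TPM in siSCR, 1.75-fold lower (1.501 to 2.04). Lmnb2, the other B-type lamin gene, was at 11.5 TPM in siHsc70 and 15.3 TPM in siSCR, 1.21-fold lower (1.06 to 1.39). Lmnb1 was thus higher than Lmnb2 by a wide margin in siSCR, with 0.600 Lmnb2 transcripts per Lmnb1 transcript, and close to it in siHsc70, with 0.865.

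The balance of A-type to B-type lamin transcripts was higher in siHsc70, where there were 3.27 Lmna transcripts per B-type transcript, against 1.82 in siSCR. The lamins summed to 105 TPM in siHsc70 and 115 TPM in siSCR. Of all estimated counts they took 0.0164% in siHsc70 and 0.0161% in siSCR, so the direction of the sum depends on the scale. Genes of S phase and mitosis were mostly lower in siHsc70 too. Of 15 measured, 6 were lower by 2-fold or more, where 5.14% of all measured genes were, and 0 higher. Their median was -0.76, but they ranged from -1.41 (Cenpf) to 0.10 (Aurka). Those with the largest difference were Cenpf, a kinetochore protein (1.28 TPM in siHsc70, 4.09 TPM in siSCR), Top2a, the topoisomerase of dividing cells (10.6 and 26.9 TPM), and Ccna2, the S-phase and mitotic cyclin (7.93 and 22.3 TPM). Mcm2, Pcna, Mcm3 and Tyms, picked after their values were seen, differed less, with ratios of 0.848, 0.856, 0.814 and 0.944. The part of S phase and mitosis genes in the lamin values was not tested.

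Partners of the lamina differed in both directions, none of them by 2-fold. Of 17 measured genes of the inner nuclear membrane, the nuclear envelope bridges and the chromatin tether, 0 passed the 2-fold rule in either direction and 3 the 1.5-fold rule, which 21.7% of all measured genes passed; the median was 0.12, or -0.048 when computed from TPM. Tmpo, furthest from 0, encodes the lamin-binding LAP2 proteins and was at 35.3 TPM in siHsc70 and 60.8 TPM in siSCR, a ratio of 0.644 (0.599 to 0.693). Lbr, the receptor that binds B-type lamins and was picked after its values were seen, was at 11.01 TPM in siHsc70 and 18.3 TPM in siSCR. Tmem43 and Syne1, which encode an inner nuclear membrane protein and a nesprin and were picked likewise, were higher, at 196 and 17.4 TPM in siHsc70 and 141 and 11.7 TPM in siSCR. Of 7 genes that process the lamin C terminus, 0 passed the 2-fold rule on the CPM scale, with a median of -0.13. Of all measured genes 2.29% passed it as higher and 5.14% as lower, so 0 of 7 says little. Fnta, the shared subunit of the farnesyl and geranylgeranyl transferases, was furthest from 0, with a CPM ratio of 0.543 (0.514 to 0.572). Its TPM values, 133 in siHsc70 and 271 in siSCR, lie more than 2-fold apart, so its call depends on the scale. Zmpste24, the protease that cuts prelamin A and was also picked after its values were seen, was at 77.3 TPM in siHsc70 and 73.6 TPM in siSCR.

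Other intermediate filament genes were few and low. Of 16 looked up, 14 were in the table and 5 were measured, 1 of them at least 2-fold higher and 0 at least 2-fold lower. Krt8, a keratin of simple epithelia, was at 9.62 TPM in siHsc70 and 3.24 TPM in siSCR, a ratio of 3.28 (2.35 to 4.64). Its usual partner Krt18 was below the minimum, with 20 counts in siHsc70 and 14 in siSCR. Sync, which encodes syncoilin, was at 17.9 TPM in siHsc70 and 12.5 TPM in siSCR, and Prph, which encodes the peripheral neuron filament peripherin, at 4.01 and 2.23 TPM in the same order. Synm, which encodes synemin, a partner of vimentin and desmin, was at 0.78 TPM in siHsc70 and 1.48 TPM in siSCR, and Krt10 at 2.71 and 3.26 TPM. Des, the muscle filament gene, had 2 counts in each library.

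Proteins that tie intermediate filaments to other structures and those that modify them were looked up as well. Of 9 measured linker genes, 0 differed by 2-fold, with a median of 0.22. By that rule 2.29% of all measured genes were higher and 5.14% lower, so 0 of 9 says little. Pkp4, a plakophilin-related junction protein, was furthest from 0, with a ratio of 0.539 (0.509 to 0.570) in CPM, the scale of the rule. Its TPM values, 41.0 in siHsc70 and 83.7 in siSCR, lie more than 2-fold apart, so its call depends on the scale. Plec, which encodes plectin, the main linker of vimentin to actin and microtubules, was picked after its values were seen. It was at 28.9 TPM in siHsc70 and 18.8 TPM in siSCR, a ratio of 1.70 (1.61 to 1.78). Of the 9 linkers 6 were higher in siHsc70 by any amount and 3 lower. The lower ones were Pkp4, Macf1 with a ratio of 0.698 and Dst with 0.850. Of 11 measured genes of turnover and modification, 2 were at least 2-fold lower, where 5.14% of all measured genes were, and 0 higher. Their median was -0.11, or 0.041 with a minimum mean of 5 CPM and -0.014 with no minimum. Padi2, an arginine deiminase of oligodendrocytes and astrocytes that citrullinates vimentin, GFAP and myelin basic protein, was at 6.16 TPM in siHsc70 and 25.2 TPM in siSCR, a ratio of 0.271 (0.236 to 0.311). Aurkb, a mitotic kinase that phosphorylates vimentin during cell division, was at 5.03 TPM in siHsc70 and 12.9 TPM in siSCR.

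**Figure D4:**
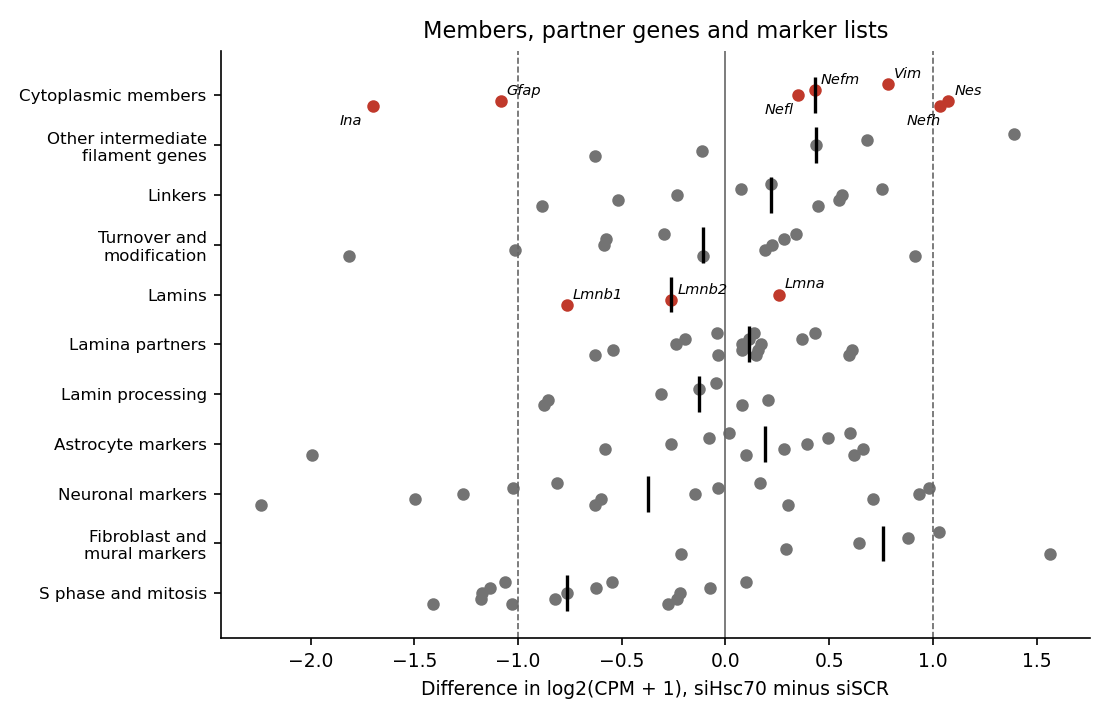
Difference in log2(CPM + 1), siHsc70 minus siSCR, for each measured gene of the members (labelled) and of the partner and marker lists; bars are list medians and dashed lines the 2-fold rule. Cytoplasmic members spread from -1.70 (Ina) to 1.07 (Nes), and the 17 lamina partners lie within the 2-fold lines.

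Vim and Nes are also made by cells other than glia, and markers of those cells were looked up. Of 10 fibroblast and mural cell markers, 6 were measured and 2 were at least 2-fold higher, with 64.8 TPM for the whole list in siHsc70 and 40.4 TPM in siSCR. They were Col1a1, the main collagen of fibroblasts (24.3 TPM in siHsc70, 8.82 TPM in siSCR), and Postn, a matrix protein (3.90 and 1.81 TPM). Of the 6 measured, 5 were higher in siHsc70 by any amount and 1 lower. Picked after their values were seen, Col1a2 had a ratio of 1.96 (1.58 to 2.43), Pdgfrb of 1.65 (1.31 to 2.09) and Col3a1 of 0.802 (0.495 to 1.29). Below the minimum, Dcn and Lum had 1 and 0 counts in siHsc70 and 9 and 2 in siSCR, and Acta2 had 13 in siHsc70 and 2 in siSCR. Of 12 microglial markers 8 were in the table, 2 of them measured, and the 8 summed to 12.8 TPM in siHsc70 and 7.22 TPM in siSCR; Cd68, a lysosomal protein of phagocytes, was at 7.17 and 3.03 TPM, whereas Aif1, C1qc and Tyrobp each had 1 count in siHsc70 and 0 in siSCR. Of 10 endothelial markers 7 were in the table, 4 of them measured, and the 7 summed to 8.03 TPM in siHsc70 and 6.86 TPM in siSCR. Kdr, a VEGF receptor, was at 0.09 and 0.82 TPM, and Cdh5 had 0 counts in siHsc70 and 1 in siSCR. The part of these cells in the Vim and Nes values was not tested.

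Genes listed as markers of the precursor stage, at which Vim and Nes are known to be expressed, were lower. Whether each listed gene is confined to that stage was not tested. Of 10 OPC markers, all 10 measured, 7 were at least 2-fold lower and 0 higher in siHsc70, with a median of -1.76 and sums of 655 TPM against 1640 TPM in siSCR. The OPC genes with the largest differences were Tnr, Gpr17 and Vcan, at 5.06, 24.0 and 9.44 TPM in siHsc70 and 82.5, 317 and 58.4 TPM in siSCR. Their ratios were 0.0676, 0.0903 and 0.164. The list was uneven. Ptprz1, Pdgfra and Nxph1, picked after their values were seen, did not pass the 2-fold rule, with ratios of 0.792, 0.560 and 0.536. Cspg4, picked likewise, passed it with a ratio of 0.468. Among the oligodendrocyte markers, Enpp6 was at 6.43 TPM in siHsc70 and 66.1 TPM in siSCR, and Myrf, a transcription factor that drives myelin genes, at 22.1 and 173 TPM in the same order. Vim and Nes were thus higher in the library in which the measured genes of both marker lists were lower, by unlike amounts.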

How the data were processed

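RNA-seq of 2 libraries was used, 1 per siRNA (siHsc70 and siSCR), and columns were matched to samples by the siRNA they name. Per the file headers, the table holds for each library the authors' estimated counts per gene, and deposited FPKM and TPM values scaled by transcript length and library size. About 26.7% of the siHsc70 and 26.5% of the siSCR counts are not whole. The submitters' processing notes name the mouse build mm39, yet 16783 of the 18049 gene IDs are in RefSeq's rat table (GRCr8), so the build is uncertain and coordinates are given only for the RefSeq promoter windows. For the aligner, the counting program and strandedness the sources used here give nothing.

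Estimated counts were rounded and scaled with TMM factors (0.992 for siHsc70 and 1.01 for siSCR; edgeR 4.0.16, R 4.3.3). Differences are log2(CPM + 1), siHsc70 minus siSCR; the pseudocount of 1 shrinks the differences of low genes. A count of 0 allows up to 3 counts, or 0.167 CPM in siHsc70 and 0.156 CPM in siSCR. Ratios carry exact intervals (scipy 1.17.1); PCR copies are not independent molecules. With 1 library per group no p-value was computed. The members and the 13 other gene lists were chosen with earlier results of these data known. Named genes are the members, the measured genes of the list of other intermediate filament genes, and for each other list up to 3 higher and 3 lower genes past 2-fold, or the one furthest from 0; exceptions are named as such, and 1 gene that the rule names is not reported here. Genes below the minimum are named by their counts to show which list members were near 0. The scaling and intervals were tested on simulated data. The alternatives were 8: another pseudocount, 2 scalings, the deposited TPM and FPKM, a 1.5-fold rule, no minimum and a minimum of 5 CPM.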

Additional observations from a re-analysis of the deposited data

How the results depend on the processing

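No paired analysis was possible because each siRNA has 1 library, and no library could be left out for the same reason. Over the 6 settings that give each member a value (the main one, a pseudocount of 0.1, total count and upper-quartile scaling, and the deposited TPM and FPKM), no member changed sign. Vim ranged from 0.64 to 0.85, Nes from 0.94 to 1.14, Gfap from -1.22 to -1.02, Ina from -1.80 to -1.62, Nefl from 0.22 to 0.41, Nefm from 0.29 to 0.49, Lmna from 0.12 to 0.32, Lmnb1 from -0.90 to -0.71 and Lmnb2 from -0.39 to -0.20. Of the 2 members at least 2-fold higher, 0 passed with the deposited TPM, 1 with the deposited FPKM and 1 with a minimum mean of 5 CPM, which leaves Nefh out. The 2 lower members passed in every setting run, and the 1.5-fold rule added Vim and Lmnb1. Over all measured genes 310 were higher by the 2-fold rule; this became 518 with a pseudocount of 0.1, 189 with the deposited TPM and 202 with the deposited FPKM. With the 1.5-fold rule it was 1304, and the lower count was 1626 against 695. The median of all measured genes, -0.0034, was -0.026 with total count scaling, 0.055 with upper-quartile scaling, -0.13 with the deposited TPM, -0.020 with the deposited FPKM and 0.0050 with no minimum. Medians of other lists that moved by over 1.5 times, each given at the setting furthest from its main value, were those of neuronal (-0.37, or -0.18), fibroblast and mural (0.76, or 0.47) and other intermediate filament genes (0.44, or 0.079), each with no minimum, and those of linkers (0.22, or 0.086) and lamin processing (-0.13, or -0.29) with the deposited TPM. The cause of these shifts was not tested. Depth limits Nefh most, at 40 and 11 counts.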
